A study of Mus musculus with 2 samples.

Results

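AP-1 is a family of dimeric transcription factors that bind DNA as pairs of Fos and Jun proteins. The 8 genes described are Fos, Fosb, Fosl1 and Fosl2, which encode the Fos proteins, Jun, Junb and Jund, which encode the Jun proteins, and Atf3, which encodes a related basic leucine zipper factor that pairs with Jun proteins. They were selected by symbol from the 21849 features of the count matrices, and all 8 were matched by gene symbol and gene identifier. They are listed by name, without a threshold on any measured value. Fos, Fosb, Jun, Junb and Atf3 are immediate early genes: their transcription starts within minutes of a stimulus and needs no new protein, and most of their transcripts and proteins are short-lived. Fosl1 (Fra-1) and Fosl2 (Fra-2) encode Fos proteins that lack the transactivation domain of Fos, are themselves induced by AP-1 and ERK signalling, and act more slowly. Jund is expressed at a steadier level in most cells. In the skeleton, Fos is needed for osteoclast formation, and Fosl1 and Fosl2 act in bone matrix production and in chondrocytes and osteoblasts.

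The study compared costal-cartilage-derived stem cells (CDSCs) freshly isolated from the rib cartilage of newborn C57BL/6J mice, which were CD45.1 or ZsGreen animals, with CDSCs expanded in plastic culture and taken at passages 2 to 3. Per the study, the cartilage was digested with type II collagenase, CDSCs were sorted as CD45-CD51+ cells, and cultures were kept in serum-containing medium. The labels give 1 library of each group, called primary and cultured, without a number of animals or cultures, and they name bone marrow as the tissue of both. With 1 library per group no test was possible: all differences below are differences between these libraries, and all intervals cover counting error only.

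Barcodes counted as cells from 500 genes and 1000 unique molecular identifiers (UMIs, each tagging 1 captured transcript) upwards, unless over 10% of their UMIs were mitochondrial. This left 11746 of 11896 primary barcodes with a median of 10026.5 UMIs, and 5338 of 10798 cultured barcodes with a median of 56864.5 UMIs. Cells were therefore compared at equal depth or as counts scaled to the library total (CPM, UMIs per 1000000), and values without either are named as such. Each ratio of CPM is thus a ratio of shares of the captured UMIs. The libraries shared 32 barcodes. The chondrocyte list summed to 92791 CPM before culture and 598 CPM after it, with 14 and 2 of its 14 genes above 10 CPM and none at 0. Col2a1, the main cartilage collagen, stood at 53268 and 489.8 CPM, the CD51 gene Itgav at 92.5 and 109 CPM, and the CD45 gene Ptprc at 0.62 and 0.345 CPM. By these markers the primary library was cartilage-like and the cultured library was not. The haematopoietic list, 6 genes that would mark blood cells of the labelled bone marrow, summed to 7.57 and 29.2 CPM. The ZsGreen transgene was at 444 CPM among primary cells and had 0 UMIs among cultured cells, which allows up to 0.00909 CPM. The libraries therefore also differed in ZsGreen. Whether this reflects different donor animals was not tested, and animal, culture and preparation cannot be told apart.

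By gene identifier, in GENCODE M21 on GRCm38, Fos lies on chromosome 12 at 85473890-85477273 (plus strand), Fosb on chromosome 7 at 19302696-19310051 (minus strand), Fosl1 on chromosome 19 at 5447547-5455946 (plus strand) and Fosl2 on chromosome 5 at 32135801-32157842 (plus strand). Jun lies on chromosome 4 at 95049034-95052222 (minus strand), Junb and Jund on chromosome 8 at 84974484-84978718 (minus strand) and 70698949-70700616 (plus strand), and Atf3 on chromosome 1 at 191170296-191218039 (minus strand). Jun and Jund are single-exon genes. No member overlaps an annotated gene on its own strand. Jun, Junb, Fosl1, Jund and Atf3 overlap a gene on the opposite strand, namely Junos, Prdx2, Ccdc85b, Gm11175 and Gm24748, and the 3′ kit records strand.

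Because the 5 immediate early members were low together in culture, the 250 bases before the RefSeq start of their genes were searched on both strands for the AP-1 site TGAGTCA, the cAMP response element TGACGTCA, its core TGACGT, the Jun-type variant TGACATCA, TATAAA and the CArG box bound by serum response factor. RefSeq promoters (GRCm38.p6) were matched for 7 of the 8 members, all but Fosl1. The 3 sequences that held a match follow, 5′ to 3′ on the gene's strand and ending at the base before the start, with the matches in capitals. The Fos window is chr12:85473640-85473889, the Jun window is chr4:95052223-95052472 and the Atf3 window is chr1:191183334-191183583, which lies at an internal start of the annotated gene.
Fos: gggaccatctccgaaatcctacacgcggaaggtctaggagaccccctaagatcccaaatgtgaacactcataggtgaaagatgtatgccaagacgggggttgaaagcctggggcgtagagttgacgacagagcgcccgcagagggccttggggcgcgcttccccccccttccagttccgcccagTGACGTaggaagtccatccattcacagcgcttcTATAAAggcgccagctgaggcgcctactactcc
Jun: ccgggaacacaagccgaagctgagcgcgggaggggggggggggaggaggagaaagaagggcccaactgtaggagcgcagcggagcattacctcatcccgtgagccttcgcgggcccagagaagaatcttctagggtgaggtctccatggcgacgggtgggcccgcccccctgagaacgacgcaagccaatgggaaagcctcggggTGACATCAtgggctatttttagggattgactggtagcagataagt
Atf3: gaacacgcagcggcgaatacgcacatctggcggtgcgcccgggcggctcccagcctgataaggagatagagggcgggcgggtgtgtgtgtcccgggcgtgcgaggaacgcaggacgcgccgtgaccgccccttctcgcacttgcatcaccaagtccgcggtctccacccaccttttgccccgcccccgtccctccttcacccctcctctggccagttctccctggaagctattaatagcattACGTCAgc

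The Fos window held the core TGACGT from 66 to 61 bases before the start and TATAAA from 33 to 28 bases before it. The Jun window held TGACATCA from 45 to 38 bases before the start, and the Atf3 window held the core on the opposite strand, read as ACGTCA, from 8 to 3 bases before it. Of all 32851 RefSeq promoters, 6.47% held the core in this window, 2.93% TGACATCA, 12.4% TATAAA, 4.46% TGAGTCA, 1.55% TGACGTCA and 1.47% a CArG box. The windows of Fosb, Junb, Jund and Fosl2 held no match. The Jund window, chr8:70697489-70697738, ended well before the annotated gene start at 70698949, so the bases next to that start were not searched. The Fosl2 window, chr5:32136222-32136471, lay inside the annotated gene. Bases farther upstream than 250 were not searched, so the lack of a CArG box or other match says nothing about sites there. A match is a run of letters and not a measured site.

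The family as a whole made up 13360 CPM of the primary library and 1962 CPM of the cultured library (log2 ratio of cultured over primary -2.77). The members did not share this ratio. All 5 immediate early members were lower after culture by 4-fold or more, where 5.73% of the 9115 genes that reached 10 CPM in a library were. Fosl2 was higher by 2-fold or more, where 27.2% of these genes were, and Fosl1 and Jund differed by less than 2-fold. Of the 9115 genes, 20.8% had a ratio below that of Jund, 22.1% below that of Fosl1 and 76.9% below that of Fosl2. The median log2 ratio was -3.14 over the immediate early members and 0.37 over all 9115 genes, so that a typical gene was slightly higher in the cultured library. All 8 members passed the 10 CPM limit in both libraries.

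**Figure D1:**
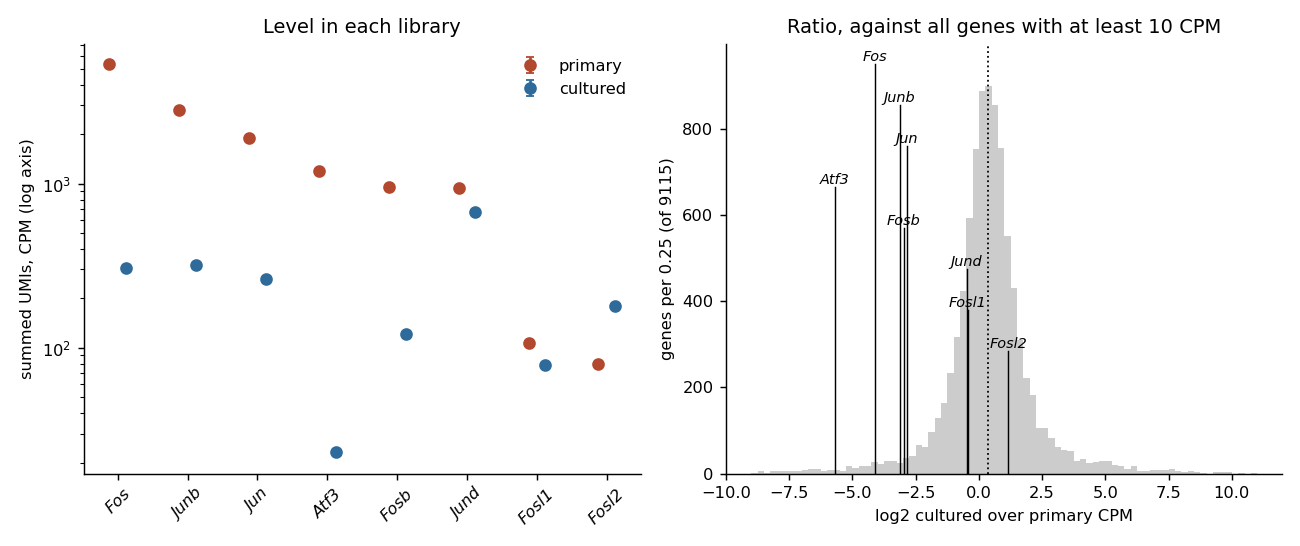
Left: the summed level of each gene in the primary (red) and cultured (blue) library, in CPM on a log axis, with 95% Poisson counting intervals that are mostly smaller than the points. Right: the log2 ratio of each gene (lines, whose heights only separate the names) over a histogram of the 9115 genes with at least 10 CPM, with the median of 0.37 dotted; the immediate early genes lie between -5.69 and -2.85, Jund and Fosl1 just under 0 and Fosl2 at 1.16.

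Fos was the most abundant member in the primary library. It had 5378 CPM (95% interval 5366 to 5390) there against 308 CPM (306 to 310.3) after culture, which is 17.4-fold lower (log2 ratio -4.12, interval -4.13 to -4.11). By UMIs it ranked 12 among all genes before culture and 494 after it. Fosb, whose protein resembles Fos and is induced with it, had 955 CPM (950.3 to 961) before and 122 CPM (120.4 to 123) after culture, 7.86-fold lower. Both ratios lay in the lower tail of all genes: 2.14% of the 9115 genes had a ratio below that of Fos, and 3.49% one below that of Fosb. Over cells of 10000 to 30000 UMIs alone, the log2 ratio of Fosb was -2.38 in place of -2.97.

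Among the Jun genes, Jun and Junb were lower to a similar extent and Jund was not. Jun, the main transactivating partner of Fos, had 1888 CPM (1880.4 to 1895) before and 263 CPM (261 to 264) after culture, 7.19-fold lower. Junb, which is a weaker activator on single sites and can oppose Jun, had 2823 CPM (2814 to 2832) and 320.2 CPM (318 to 322), 8.82-fold lower. Jund had 941 CPM (936 to 946) and 669.5 CPM (667 to 672), 1.41-fold lower, with a log2 ratio of -0.49. The Jund transcript was the most abundant member by UMIs in the cultured library, where it ranked 196 among all genes, against 147 in the primary library.

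Atf3, a stress-induced factor that represses many of its targets, showed the largest ratio of the 8. Its level was 1189 CPM (1184 to 1195) among primary cells against 23.0 CPM (22.5 to 23.6) among cultured ones, 51.6-fold lower (log2 ratio -5.69). Only 1.12% of the 9115 genes had a lower ratio. It was the least abundant member in culture, at rank 6005.

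Fosl1 and Fosl2 parted from the rest and from each other. Fosl1 had 106 CPM (105 to 108) before and 78.3 CPM (77.4 to 79.3) after culture (log2 ratio -0.44, -0.47 to -0.41). Fosl2 had 79.9 CPM (78.4 to 81.4) and 178 CPM (177 to 179.9), 2.23-fold higher (log2 ratio 1.16, 1.13 to 1.19). The order of the pair was thus reversed, with 0.75 Fosl2 UMIs per Fosl1 UMI before culture and 2.28 after it. The mean log2 ratio of Fosl1 and Fosl2 was 4.11 above that of the immediate early members (counting interval 4.09 to 4.14), a value that does not depend on how the libraries are scaled. Fosl1 alone lay 3.31 above that mean, Fosl2 4.91 and Jund 3.26, so Jund stood as far from the immediate early members as Fosl1 did. Only 1 of the 2 Fosl genes was higher in culture, but among the dividing cells of each library alone both were, with Fosl1 at a log2 ratio of 0.19.

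The make-up of the family differed accordingly. These are shares of 3′ UMIs, each counting 1 captured transcript end and therefore not divided by gene length, and capture may differ between genes. The immediate early members gave 91.6% (exact binomial interval 91.5 to 91.6) of the family's UMIs before culture and 52.8% (52.7 to 52.9) after it. Fos alone gave 40.3% and 15.7%. Fosl1 and Fosl2 together gave 1.39% and 13.1%, and Jund gave 7.04% and 34.1%. Among the 4 Fos genes, the share of Fosl1 and Fosl2 was 2.86% before and 37.4% after culture. Among the 3 Jun genes, the share of Jund was 16.7% and 53.5%. Fos outnumbered Fosl2 by 67.3 to 1 in primary and by 1.73 to 1 in cultured cells.

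Cells were then compared at equal depth by drawing 5000 UMIs from each cell that had them, which kept 10959 primary and 4543 cultured cells. The sum of the 5 immediate early genes had a median of 61 UMIs in primary cells (10th to 90th percentile 32 to 102) and of 5 UMIs in cultured cells (1 to 11). The distributions were nearly apart: 2 of 4543 cultured cells reached the primary 10th percentile, and 141 of 10959 primary cells were at or below the cultured 90th percentile. How many other genes or sums of genes were apart in this way was not counted, so this gap does not set the immediate early members off. Cells of 1 library are not replicates, and these values are descriptions. No immediate early UMI was drawn in 4 primary cells and in 233 cultured cells. For the sum of Fosl1 and Fosl2 the median was 1 UMI in both libraries and the 90th percentile 3 in both, with 49.7% of primary and 30.7% of cultured cells at 0.

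**Figure D2:**
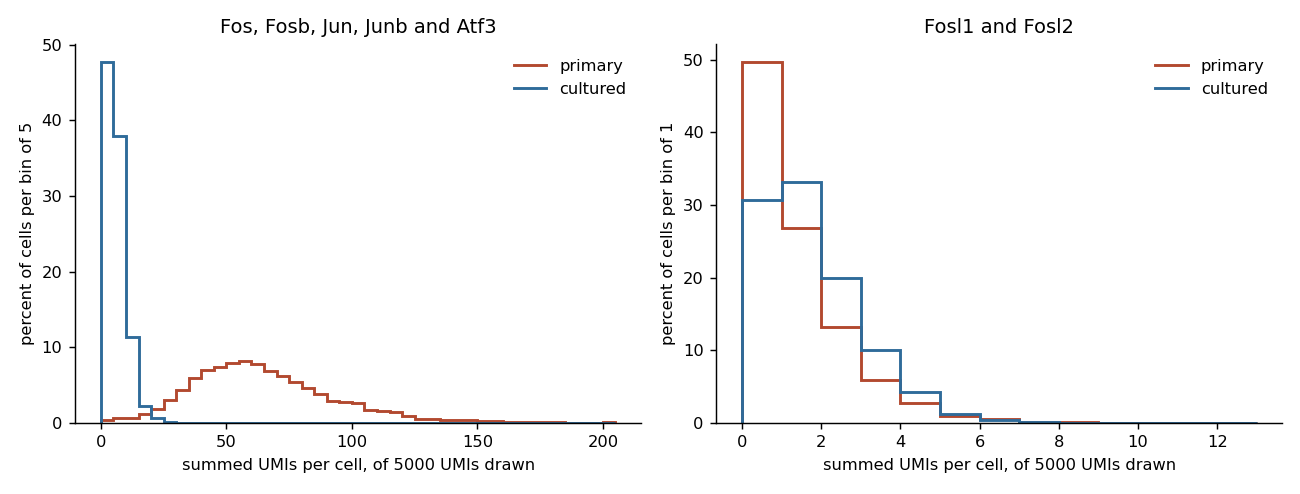
UMIs per cell summed over the immediate early genes (left) and over Fosl1 and Fosl2 (right), out of 5000 UMIs drawn from each cell, as the percent of the 10959 primary (red) and 4543 cultured (blue) cells in each bin; the last bin holds all higher counts. The immediate early sums centre on 61 and 5 UMIs, while the Fosl sums both have a median of 1, with 49.7% of primary and 30.7% of cultured cells at 0.

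For the immediate early members, both the share of cells with a UMI and the UMIs per cell were lower after culture at equal depth. At 5000 UMIs, Fos was found in 99.7% of primary and 70.8% of cultured cells (99.6% and 86.5% without thinning), with medians of 26 UMIs and 1 UMI. Junb was found in 98.5% and 72.3%, Jun in 93.5% and 61.5%, Fosb in 90.9% and 42.7%, and Atf3 in 92.7% and 9.09%. Jund was found in 93.5% and 85.7% of cells, with medians of 4 and 3 UMIs. Fosl1 shares were alike, at 32.5% (31.6 to 33.4) and 31.9% (30.6 to 33.3), while Fosl2 was found in 28.8% of primary and 56.3% of cultured cells. Without thinning, the shares for Fosl1 were 47.3% and 78.3% and for Fosl2 47.6% and 85.9%, at the median depths given above. No cell type in these libraries is known to lack AP-1 genes, so a background share from free RNA could not be read off for most members.

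The spread between cells also differed between members. In primary cells at 5000 UMIs, the variance over the mean was 8.39 for Jun, 8.03 for Fos and 6.66 for Junb, between 3.31 and 3.85 for Jund, Fosb and Atf3, 1.77 for Fosl1 and 1.27 for Fosl2, where counting alone gives a value near 1. In cultured cells it lay between 1.11 for Fosl1 and 2.09 for Jun. This ratio rises with the level of a gene, so it describes each gene at its own level and does not rank them. The highest primary cell had 115 Fos UMIs of 5000 and the highest cultured cell 14.

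Among the kept cells the CPM level also moved with depth. With primary cells ordered by depth and split into 4 equal bins, from the shallowest to the deepest, Jun stood at 2822, 2269.6, 1653 and 1608 CPM, and Jund at 1460.2, 1130.4, 835 and 781 CPM. Fos stood at 5969, 6117, 5338 and 4930.2 CPM over the same bins, and Fosl1 at 86.0, 112, 114 and 106 CPM. In the cultured library Jund went the other way, with 439, 490.0, 632 and 764 CPM, and Fos was at 344, 412, 329.5 and 259.8 CPM. The part of depth in these levels was not tested.

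To see whether all cells of a library took part, the cells of each library were clustered without the 8 members, 16 other immediate early genes and 10 heat shock genes. Levels in the 9 primary and 8 cultured clusters of at least 50 cells did not overlap between the libraries for Fos, Fosb, Jun, Junb and Atf3. The lowest primary cluster had 3318 CPM of Fos and the highest cultured cluster 543 CPM. For Atf3 these values were 669.7 and 38.3 CPM, for Junb 1797 and 422 CPM, for Jun 1123 and 379.9 CPM, and for Fosb 646 and 227 CPM. At a finer Leiden resolution of 1.0 the libraries met for Fosb, with 477 CPM (441 to 515) in the lowest primary cluster and 476 CPM (443 to 511) in the highest cultured one, of 53 cells. Cluster levels overlapped for Jund (568 to 1392 CPM in primary, 355 to 871 CPM in cultured clusters), for Fosl1 (41.1 to 215 and 40.1 to 90.9 CPM) and, by 1 cluster of each library, for Fosl2 (60.8 to 119.9 and 118.9 to 231 CPM). The Fosl2 overlap rests on cultured cluster 3, whose median depth was 1253.5 UMIs. At resolution 1.0 the highest primary cluster had 125 CPM and the lowest cultured cluster 126 CPM. How many of all genes had cluster ranges apart in this way was not counted, so the gaps do not set these members off from other genes. Clusters of 1 library are not replicates, and these ranges are descriptions.

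**Figure D3:**
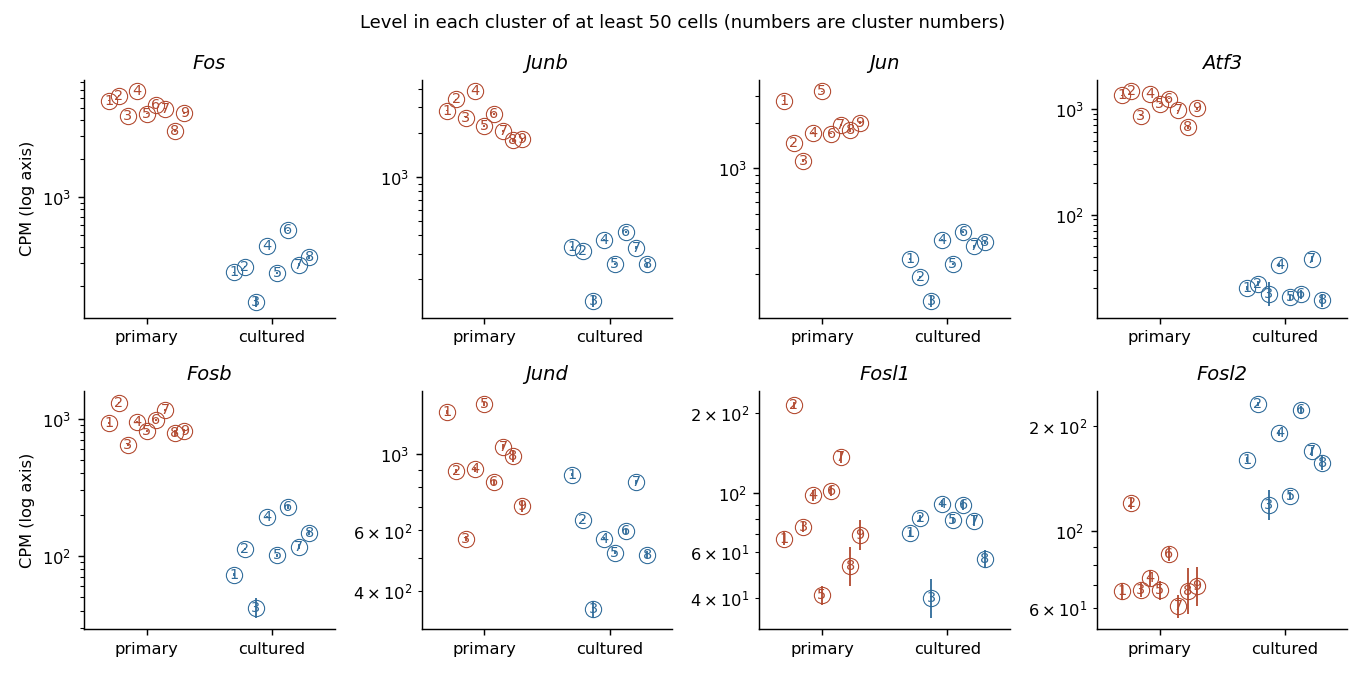
Level of each gene in CPM on a log axis in the 9 primary (red) and 8 cultured (blue) clusters of at least 50 cells, with the cluster number in each circle and 95% Poisson counting intervals as bars. The libraries are apart for Fos, Junb, Jun, Atf3 and Fosb and overlap for Jund, Fosl1 and Fosl2; primary cluster 2 is highest for Fosl1 (215 CPM) and Fosl2 (119.9 CPM) among the primary clusters.

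Within the primary library the members had different high clusters. Fos and Junb were highest in cluster 4, at 6837 and 3873 CPM, whose leading genes were Trf, Cytl1 and Fzd9. Jun and Jund were highest in cluster 5, at 3239 and 1392 CPM, which was led by Tll1, Clu and the lubricin gene Prg4 and had a lower Fos level, 4519 CPM, than 6 of the other 8 clusters. Fosl1 was lowest in that same cluster 5, at 41.1 CPM (37.9 to 44.6). Fosl1, Fosl2, Fosb and Atf3 were all highest in cluster 2, at 215 CPM (209 to 221), 119.9 CPM (116 to 124), 1311 CPM and 1470 CPM. Cluster 2 held 1988 cells and had Slc22a4, Srxn1, Dusp2 and the urokinase receptor gene Plaur among its leading genes. The highest over the lowest primary cluster was 5.22-fold for Fosl1, 2.88-fold for Jun, 2.45-fold for Jund and between 1.97-fold and 2.19-fold for the other 5 members, so Fosl1 varied most between primary clusters. At resolution 1.0 these ratios were 29.4 for Fosl1, 5.83 for Fosl2, 5.12 for Junb, 3.99 for Atf3, 3.70 for Jun, 3.43 for Fos, 2.98 for Fosb and 2.96 for Jund, with the lowest level of each in a cluster of 163 cells.

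The heat shock list, 10 chaperone genes that were kept out of the clustering, moved beside Jun in these clusters: its summed level was 5819 CPM in cluster 5 and 4792 CPM in cluster 1, where Jun had 3239 and 2800.2 CPM, and 2064 CPM in cluster 3, where Jun was lowest at 1123 CPM. Median depth moved with them as well, at 7627.5 and 7694 UMIs in clusters 5 and 1 and 12979.5 UMIs in cluster 3. Their part in the level of Jun was not tested. Cluster 8, of 290 cells with a median of 6040.5 UMIs, held markers of mast, endothelial, tenocyte and fibroblast cells and was left unnamed. It had the lowest Fos, Junb and Atf3 levels of the primary clusters, at 3318, 1797 and 669.7 CPM, all above every cultured cluster. At resolution 1.0, that cluster of 163 cells, 125 of them from cluster 3 and 34 from cluster 1, had 2252 CPM of Fos, 8.10 CPM of Fosl1 (4.04 to 14.5) and 21.4 CPM of Fosl2 (14.3 to 30.7), the lowest levels of these genes in any primary cluster of at least 50 cells. The 187 dividing cells of cluster 9 were inside the range of the other clusters for all 8 members.

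Within the cultured library, 1 cluster stood high for Fos, Fosb, Jun and Junb. It was not high for Atf3 (17.6 CPM, cluster range 15.5 to 38.3 CPM) or Jund (597 CPM, cluster range 355 to 871 CPM). Cluster 6, of 484 cells, led by Mmp13 (collagenase 3), Csmd1 and Sfrp4 and also by Comp, was highest for Fos (543 CPM, 534 to 553), Fosb (227 CPM), Jun (379.9 CPM) and Junb (422 CPM). Mmp13 itself is a known AP-1 target in other cells, and a link between its level and these 4 genes was not tested. Cluster 4, led by Gpc3, Omd and Aspn, came next for these 4 genes, with 407 CPM of Fos, and was highest for Fosl1 at 90.9 CPM (88.2 to 93.7), which its neighbour in order, cluster 6 at 89.8 CPM (86.1 to 93.6), did not differ from beyond counting error. Fosl2 was highest in cluster 2, led by Hmcn1 and Il1rl1, at 231 CPM (227 to 234), followed by cluster 6 at 222 CPM (216 to 228). Jund was highest in cluster 1, at 871 CPM, which was led by Klk8, H2bc4 and Slpi and was the second lowest cluster for Fosb at 73.1 CPM. The 743 dividing cells of cluster 5 had 251 CPM of Fos and 126 CPM of Fosl2, the second lowest Fosl2 level.

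Cultured cluster 3 held 820 barcodes with a median of 1253.5 UMIs and was lowest for 7 of the 8 members, Atf3 being the exception. At resolution 1.0 the shallow cultured cluster, of 662 barcodes with a median of 1179 UMIs, had 939 CPM summed over the immediate early members and 227 CPM of Fosl2 and was not the lowest for any member among the clusters of at least 50 cells. A cluster of 9 cells with haematopoietic markers had 328 CPM of Fos, inside the range of the other cultured cells, but 205 CPM of Atf3 (163 to 254), above all larger cultured clusters, and 9.87 CPM of Fosl1 (2.69 to 25.3), below all of them.

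Across single cells of 1 library, some pairs of members went together more than others. In primary cells at 5000 UMIs, Pearson r of log counts was 0.49 for Fos with Junb, 0.35 for Fos with Fosb and 0.34 for Fos with Atf3, and 0.38 for Jun with Jund. The pairing of Fos with Jun, which form the classical dimer, was weaker at 0.18, and Jun with Junb was at 0.02. Other pairs lay between, with 0.27 for Junb with Atf3, 0.24 for Fosb with Jund and 0.20 for Fos with Jund, so the pairs were not separate. Fosl1 had 0.16 with Fosb and 0.15 with Junb and -0.07 with Jun. Over the 4543 cultured cells the strongest were Fos with Fosb at 0.27, Fos with Jun at 0.22 and Fos with Junb at 0.22, and the highest pair with Fosl1 or Fosl2 was at 0.07. The points share a library and a fixed depth, low counts pull r toward 0, and cells are not independent replicates, so these are descriptions without a test.

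**Figure D4:**
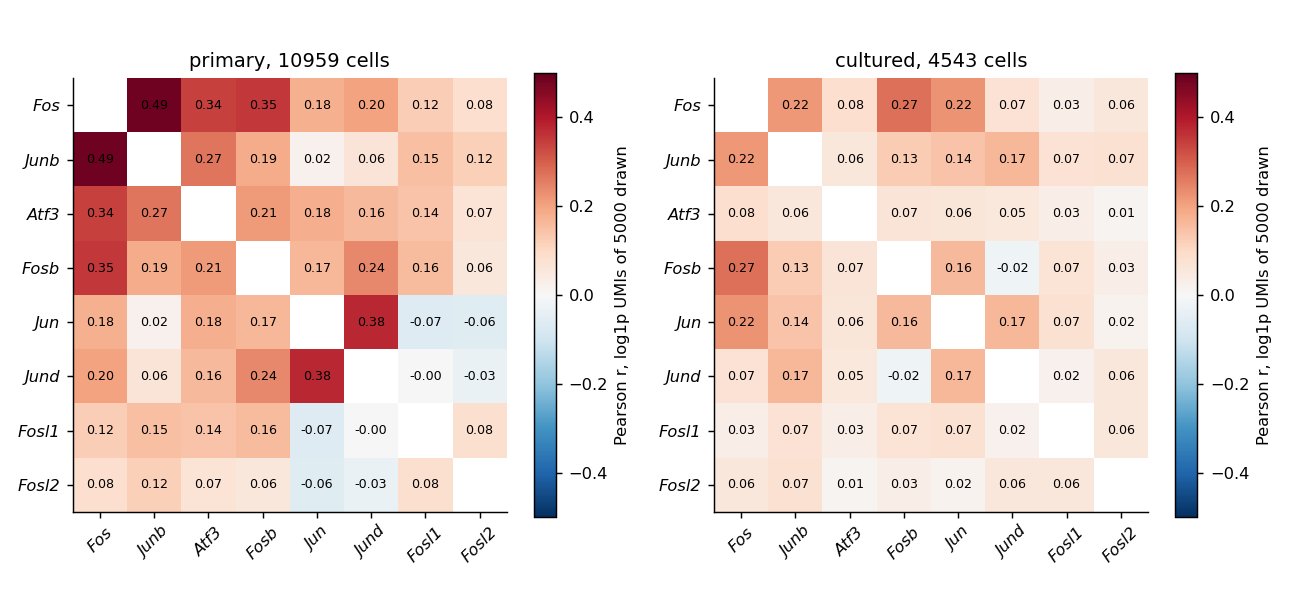
Pearson r between members over the cells of the primary (left, 10959 cells) and cultured (right, 4543 cells) library, on log1p counts of 5000 UMIs drawn per cell, from blue (negative) to red (positive). In the primary library Fos goes with Junb (0.49), Fosb and Atf3, and Jun with Jund (0.38); in the cultured library the highest value is 0.27, for Fos with Fosb.

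At 5000 UMIs nearly all primary cells held transcripts of both parts of the classical dimer. Fos and Jun were drawn together in 93.3% of primary cells (92.8 to 93.8) and in 46.6% of the cultured ones (45.1 to 48.0). The products of the separate shares were 93.2% and 43.6%, so the primary share was close to that of independent draws. In the cultured library, Fos was drawn in 75.7% of the cells with a Jun UMI and in 62.9% of those without. Fosl2 with Jund was drawn in 27.0% of primary and 49.2% of cultured cells, the last close to the 48.3% that the product of the separate shares gives. Fosl1 and Fosl2 were drawn together in 10.9% of primary cells and 19.0% of cultured cells, where the products of shares were 9.35% and 18.0%.

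Apart from the members, the genes whose counts went most with Fos across primary cells were, in order, Ier2 (r 0.44), Egr1 (0.43), Nr4a1 (0.38), Btg2 (0.33), Zfp36 (0.32), Ccnl1 (0.29), Klf4 (0.29) and Ifrd1 (0.29), out of 7366 genes compared. Ier2, Egr1, Nr4a1, Btg2 and Klf4 are themselves immediate early genes, and Zfp36 encodes a protein that degrades such transcripts. For Fosl1 in cultured cells the genes reported are Errfi1 (0.14), Hmox1 (0.11), Emp1 (0.10), Btg2, Gclc, Peak1 and Sdc2, all too weak to count as a finding. Outside the naming rule, and looked up after the values above were seen, the genes nearest to Jun in primary cells, members apart, were Rhob (0.41), Klf2 (0.40), Hspa1a (0.32), Klf6 (0.31) and Hsph1 (0.30), of which Hspa1a and Hsph1 encode heat shock chaperones. Those nearest to Fosl1 in primary cells were Ifrd1 (0.27), Rcan1 (0.27), Errfi1 (0.25), Rtn4 (0.23), the TWEAK receptor gene Tnfrsf12a (0.23) and Phlda1 (0.22). Only Ifrd1 is among the 8 genes nearest to both Fos and Fosl1 in primary cells.

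AP-1 genes are switched on by ERK, JNK and p38 kinases through serum response factor (Srf), its ternary partners (Elk1, Elk3, Elk4) and its actin-linked coactivators (Mrtfa, Mrtfb). Of the 14 of 16 listed genes with at least 10 CPM, 10 were higher and 4 lower in culture, where 64.5% of all genes were higher and 35.5% lower. Past 2-fold were 3 of the higher and 2 of the lower genes, where 27.2% and 12.5% of all genes were. The ERK1 gene Mapk3 went from 26.5 to 60.3 CPM, Mrtfa from 43.9 to 119 CPM and Mrtfb from 20.9 to 61.8 CPM. Srf went from 19.2 to 7.10 CPM and Elk3 from 175 to 80.8 CPM. The JNK1 gene Mapk8 went from 57.9 to 35.1 CPM. The list median was 0.42, beside 0.37 for all genes.

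Genes that end the response went both ways, 6 lower and 6 higher of 12 with at least 10 CPM, where 35.5% of all genes were lower and 64.5% higher. Zfp36 went from 737 to 61.5 CPM, a log2 ratio of -3.58, while its relatives Zfp36l1 and Zfp36l2 went from 103 to 224 CPM and from 91.2 to 189 CPM. The phosphatase gene Dusp1 went from 866 to 390.3 CPM, and Spry2, an ERK pathway inhibitor, from 149 to 40.4 CPM, whereas Spry1 went from 4.11 to 17.6 CPM. Fbxw7, Itch and Cop1, ubiquitin ligase genes that act on Jun proteins, had log2 ratios of 0.19, -0.21 and 0.21.

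Of the other basic leucine zipper genes, which can share dimers or sites with AP-1, 13 of 15 had at least 10 CPM, 9 of them lower and 4 higher in culture, where 35.5% of all genes were lower. Batf went from 16.6 to 1.45 CPM, Maff from 213 to 34.0 CPM and Atf4, the effector of the integrated stress response, from 715 to 174 CPM, the 3 that were at least 4-fold lower, where 5.73% of all genes were. Maf went from 48.3 to 156 CPM, the only member of this list at least 2-fold higher. Jdp2 (56.8 and 35.7 CPM), Atf2 (45.4 and 55.3 CPM) and Atf7 (27.8 and 21.8 CPM) differed by less than 2-fold.

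The other immediate early genes were lower with the family: 16 of 16 had a lower level in culture, 11 of them at least 4-fold, where 35.5% of all genes were lower and 5.73% at least 4-fold lower, with a list median of -2.55. Egr1, a zinc finger factor induced by the same kinases as Fos, went from 1935 to 351 CPM, Ier2 from 2641 to 211 CPM, Nr4a1 from 974 to 101 CPM and Gadd45b from 905 to 64.2 CPM. Klf6, at 283 and 228 CPM, Ier5, at 179.7 and 109 CPM, and Egr3, at 44.8 and 26.0 CPM, were among the 4 that were less than 2-fold apart, with Ier3 at 534 and 274 CPM. The heat shock list had 6 lower and 4 higher genes, where 35.5% of all genes were lower. At least 4-fold lower were 3 of the 10, with Hspa1a at 276 and 3.41 CPM, Hspa1b at 119 and 2.45 CPM and Dnajb1 at 427 and 42.0 CPM, while Hsph1 was at 171 and 95.1 CPM, Bag3 at 158 and 77.6 CPM, Hspb1 at 165 and 192 CPM, Hspa8 at 1256 and 1039 CPM and Hsp90aa1 at 486 and 703 CPM. The 3 lowest of these moved with the immediate early members, and their part in the difference was not tested.

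Genes known as AP-1 targets in other cells went the other way from the immediate early members. Of the 21 listed genes, 20 were higher after culture and 1 lower, where 64.5% of all genes with at least 10 CPM were higher. A filter at 10 CPM in either library would favour this direction, since 7 of the genes reach it only in the cultured library. Of the 9 with at least 10 CPM in the primary library, 9 were higher and 6 of these at least 4-fold. Among the 9115 genes that reached 10 CPM in a library, 10.6% were at least 4-fold higher. That share also counts genes that reached the limit only after culture, so it is not a matched background for the 9. A share over genes that passed the limit before culture was not computed. Mmp13 went from 0.153 to 22.4 CPM, Spp1 (osteopontin) from 53.1 to 6573 CPM, the hyaluronan receptor gene Cd44 from 8.11 to 358 CPM, Ccnd1 (cyclin D1) from 11.6 to 368 CPM, Hmga1 from 1.41 to 40.2 CPM and Il6 from 0.678 to 24.5 CPM. Plaur (19.9 and 58.7 CPM), Timp1 (275 and 896 CPM) and Hbegf (168 and 223 CPM) differed by less than 4-fold. Of the 5 targets under 10 CPM, Mmp3, Mmp10, Areg and Lif were also higher in culture and Mmp9 was lower, at 0.496 and 0.170 CPM. These genes have many regulators other than AP-1, and the list was chosen with results of these libraries known, so its direction is no independent evidence on AP-1 activity, which transcript counts do not measure.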

How the data were processed

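Primary and cultured CDSCs had each been run as 1 single-cell 3′ library (10x v3.1). The values the authors deposited were raw UMI counts per gene and barcode. Per the labels and the submitters' processing notes, they came from Cell Ranger 7.0.0, which by default also counts intronic reads. The setting was not given in the sources used here. Per the study's methods, reads were aligned to GRCm38.

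Barcodes under 500 genes, under 1000 UMIs or above 10% mitochondrial UMIs were dropped, which left 137148874 primary and 330129909 cultured UMIs. Counts were summed per library and scaled to CPM. Intervals (95%) were exact Poisson for levels, exact conditional for ratios and exact binomial (Clopper-Pearson) for shares, and a normal approximation for the contrast of mean log2 ratios. Ratios raised counts under 3 to 3. Cells were thinned without replacement to 5000 UMIs for shares and for Pearson r. Clusters came from scanpy 1.11.5 (2000 variable genes, 10 components, 20 neighbours, Leiden resolution 0.5). A cluster was named only where at least 3 markers of a single cell type reached 50 CPM and 4-fold over the other cells. At least 1 of these markers had to be among its 10 leading genes. Scrublet's automatic threshold marked almost no doublets and so had not worked. Its highest scores, 0.8% per 1000 barcodes, were left out only as an alternative. TMM factors came from edgeR 4.0.16, with no test. Scripts were tested on simulated counts. Genes named were the 8 members, listed pathway genes with at least 10 CPM and the 8 genes nearest to Fos (primary) and Fosl1 (cultured). An item among these is not reported here. The members and lists were chosen with earlier results of these data known.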

Additional observations from a re-analysis of the deposited data

Results flagged for a closer look

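The barcodes that the cell filter left out also held transcripts of the immediate early members, and no comparison above uses them. Summed over Fos, Fosb, Jun, Junb and Atf3, the level was 5649 CPM (95% interval 5332 to 5979) in the 150 primary barcodes left out and 969.8 CPM (946 to 994) in the 5460 cultured ones, against 12233 and 1036 CPM in kept cells. In the left-out primary barcodes Fos stood at 1723 CPM and Fosl1 at 181 CPM (128 to 248), above the 106 CPM of kept cells. In the left-out cultured barcodes Fosb stood at 213 CPM (202 to 225), above the 122 CPM of kept cells, and Jund at 293 CPM, below the 669.5 CPM of kept cells. Of the 5460 cultured barcodes left out, 5336 had under 1000 UMIs.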

How the results depend on the processing

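No paired analysis was possible because each group has 1 library, and for the same reason no library could be left out. The 5 immediate early members were at least 4-fold lower in culture under all 11 alternatives: TMM scaling, each cell weighing the same, no or a stricter cell filter, only cells of at least 5000 UMIs, the highest doublet scores left out, clusters with markers of other cell types left out, a total without mitochondrial and ribosomal protein genes, and 3 settings chosen after seeing the data. These were the shallow cultured clusters left out, only the 5646 primary and 619 cultured cells with 10000 to 30000 UMIs, and only the dividing cluster of each library. Fosl1 turned direction once, to a log2 ratio of 0.19 among dividing cells, where 2 rather than 1 of the Fosl genes were higher. The cause was not tested. Fosl1 ranged from -0.64 to 0.19, Fosl2 from 0.87 to 1.27, Jund from -0.89 to -0.43, Fos from -4.32 to -3.63, Fosb from -3.17 to -2.38, Jun from -3.10 to -2.54, Junb from -3.34 to -2.83 and Atf3 from -5.94 to -5.63. TMM scaling moved the median of all genes by -0.21. The contrast of 4.11 was 4.16 with cells weighing the same, 3.78 at 10000 to 30000 UMIs and 4.34 among dividing cells. The immediate early share of family UMIs in the primary library was 91.1%, 92.0% and 92.4% in these settings, 91.6% in cells of at least 5000 UMIs and 91.6% without clusters of other types. In the cultured library it was 56.1%, 64.2% and 54.2%, and 52.9% without a cell filter. The share of genes at least 4-fold lower was between 5.73% and 11.2% across limits on CPM and TMM. Thinned to 2000 UMIs, r moved for 41 of 56 pairs of members over both libraries: Fos with Junb was 0.42 in primary and 0.11 in cultured cells, and Fos with Fosb 0.14 in cultured cells.

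At 5000 UMIs the median was 0 or 1 UMI for Fosl1 and Fosl2 in both libraries and for every other member but Jund in cultured cells, which limits what single cells show. Differences between animals, cultures and preparations could not be estimated.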
